A study of Mus musculus with 4 samples.

Results

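The cytosolic ribosomal protein genes, which encode the proteins of the large (Rpl, Rplp) and small (Rps) subunits of the ribosome outside mitochondria, were followed in mouse cardiac fibroblasts after knockdown of Nr4a3. Members were all genes of the count table whose symbol begins with Rpl or Rps and a digit, or is Rplp0 to Rplp2. The 13 pseudogene symbols that contain "-ps" and the 8 symbols beginning with Rps6k, which name kinases, were left out. The rule found 58 genes of 16383, of which 38 carry large subunit symbols and 20 carry small subunit symbols. They lie on 14 chromosomes. Of the 58, 50 are the ordinary subunit genes, and 8 are copies or namesakes: Rpl3l, Rpl6l, Rpl7l1, Rpl10l, Rpl22l1, Rpl36al, Rpl39l and Rps19bp1, the last of which encodes a protein that binds Rps19 and is no ribosome subunit. Ribosomal protein genes of chromosomes 7, 8, 9, X, Y and most of 6 were not analysed here.

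All 4 libraries came from primary wild-type fibroblasts of the heart of 3-month-old mice, called adult CFs in the labels, that had received Mef2c, Gata4 and Tbx5 (MGT), the factors that convert fibroblasts into induced cardiomyocytes (iCMs). Of these, 2 also carried the non-targeting hairpin shNT and 2 the hairpin shNr4a3, and RNA was taken at reprogramming day 7. The study's stated purpose was to find how loss of Nr4a3, an orphan nuclear receptor, improves the conversion. The labels name neither the vector nor the promoter of the factors and hairpins. They also do not say whether a group's libraries were grown from different mice or dishes, and the p-values cover only the scatter among these 4 libraries, which may be technical.

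Each ribosome holds most of its proteins in a single copy, and the genes that encode them are transcribed at high and roughly matched rates in growing cells. Their mRNAs begin with a C followed by a run of pyrimidines, the terminal oligopyrimidine (TOP) motif, through which mTORC1 and Larp1 control their translation and storage. Myc raises ribosome production, and free ribosomal proteins such as Rpl5, Rpl11 and Rpl23 bind Mdm2, the negative regulator of p53. Some family members have copies with tissue-restricted expression, among them Rpl3l in heart and skeletal muscle.

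The RefSeq promoters (GRCm38.p6) of 5 members are shown on the gene strand, from 250 bases before to 50 bases after the annotated start. Rps6, Rps18 and Rpl23 are among the members with the largest falls, Rpl36al rose, and Rpl26 had a fold change near 0. Capitals mark CCGGAAG or GGGCGG on either strand, and a pyrimidine run that begins within 10 bases of the start. The windows are chr4:86857318-86857617 (minus strand) for Rps6, chr17:33955616-33955915 (minus) for Rps18, chr11:97782390-97782689 (minus) for Rpl23, chr12:69184018-69184317 (minus) for Rpl36al and chr11:68901316-68901615 (plus) for Rpl26.
Rps6: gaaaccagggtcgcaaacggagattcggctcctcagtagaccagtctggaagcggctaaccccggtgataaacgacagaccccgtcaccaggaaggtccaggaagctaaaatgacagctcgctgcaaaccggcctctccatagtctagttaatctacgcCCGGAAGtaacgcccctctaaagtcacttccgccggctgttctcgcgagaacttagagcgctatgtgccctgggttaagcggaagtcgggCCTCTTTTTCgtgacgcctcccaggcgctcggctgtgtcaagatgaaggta
Rps18: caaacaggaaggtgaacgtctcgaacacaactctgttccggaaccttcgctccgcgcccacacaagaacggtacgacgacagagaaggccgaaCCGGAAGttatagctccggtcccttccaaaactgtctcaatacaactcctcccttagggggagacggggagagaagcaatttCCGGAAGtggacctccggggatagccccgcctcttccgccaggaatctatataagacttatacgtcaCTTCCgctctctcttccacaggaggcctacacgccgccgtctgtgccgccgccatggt
Rpl23: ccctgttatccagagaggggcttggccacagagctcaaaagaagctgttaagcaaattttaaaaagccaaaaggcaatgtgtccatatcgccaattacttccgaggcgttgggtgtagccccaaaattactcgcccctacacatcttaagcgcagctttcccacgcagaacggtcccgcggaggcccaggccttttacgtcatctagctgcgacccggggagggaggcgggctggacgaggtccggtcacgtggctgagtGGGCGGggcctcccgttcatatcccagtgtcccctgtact
Rpl36al: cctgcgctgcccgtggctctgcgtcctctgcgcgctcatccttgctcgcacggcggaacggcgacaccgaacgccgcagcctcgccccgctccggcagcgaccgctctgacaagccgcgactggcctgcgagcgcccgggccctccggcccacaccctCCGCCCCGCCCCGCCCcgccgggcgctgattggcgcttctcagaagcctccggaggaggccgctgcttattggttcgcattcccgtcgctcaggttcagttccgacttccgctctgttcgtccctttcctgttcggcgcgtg
Rpl26: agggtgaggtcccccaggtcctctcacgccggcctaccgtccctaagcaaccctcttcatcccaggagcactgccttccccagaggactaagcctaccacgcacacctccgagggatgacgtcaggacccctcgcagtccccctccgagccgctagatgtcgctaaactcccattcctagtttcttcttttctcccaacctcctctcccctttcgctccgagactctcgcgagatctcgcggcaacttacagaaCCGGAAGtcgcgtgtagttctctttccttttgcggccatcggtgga

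The Rps6 window holds 1 CCGGAAG and a pyrimidine run at the start, the Rps18 window holds 2 CCGGAAG, and the Rpl36al window holds 3 overlapping GGGCGG on the strand opposite to the gene. Over all 53 promoter entries of the 44 members found in the RefSeq table, CCGGAAG, the core of sites for ETS factors such as Gabpa, was present in 39.6%, against 8.86% of all 32851 promoters. GGGCGG, the core of sites for Sp1 and its relatives, was present in 54.7% against 35.7%. A C followed by at least 4 pyrimidines that began within 10 bases of the start was present in 54.7% against 30.7%. AAGATGGC, a core of Yy1 sites, was present in 11.3% against 2.75%, and TATAAA in 9.43% against 13.6%. AAAGGTCA, the monomer site of the Nr4a receptors, was found in 5.66% of the member entries against 1.51% of all. Its 3 matches are the overlapping entries of 1 gene, Rpl35a, whose fold change was -0.02 ± 0.0892 (SE) on the log2 scale. Matches were counted on both strands, except the pyrimidine run, which was read on the gene strand. They are descriptions of the letters in these windows, and entries of the same gene overlap.

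The hairpin check, Nr4a3 itself, stood at 12.5 and 11.6 CPM (counts normalised to library size) in shNT and at 0.596 and 1.04 CPM in shNr4a3, a log2 fold change of -3.86 ± 0.267 (adjusted p = 2.65e-06, edgeR's quasi-likelihood test with Benjamini-Hochberg adjustment, as elsewhere unless an alternative is named; ranges over alternatives include DESeq2 and limma-voom). The libraries held 28220440 to 30976450 counts over the listed genes. Of 10736 genes tested, 3300 were called higher and 3158 lower in shNr4a3 at an adjusted p under 0.05, so that 60.2% of all genes were called. All 10 fibroblast markers were detected in all libraries. In shNr4a3, 6 of them were called lower and 2 higher, and 2 (Col3a1 and Ddr2) did not pass the test. Fn1 rose from 4783 and 6350 CPM in shNT to 12130 and 14590 CPM in shNr4a3. Lum rose from 7.004 and 7.525 CPM to 12.92 and 12.90 CPM. The other direction was seen in markers such as the next 3. Tcf21 read 81.56 and 89.13 CPM in shNT and 9.208 and 7.556 CPM in shNr4a3, Pdgfra 355.0 and 321.1 CPM against 66.71 and 74.91 CPM, and Col1a1 1948 and 2075 CPM against 1125 and 1043 CPM. In bulk RNA, fewer cells of a type and less RNA per cell cannot be told apart.

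Most ribosomal protein mRNAs did not pass the test between the hairpins, and 18 of the 20 that did were lower after Nr4a3 knockdown. Of the 58 members 55 passed the filter on low counts. Of these 18 (32.7%) were called lower, where 29.4% of all genes were, so the share called lower lay near the background. Only 2 (3.64%) were called higher, Rpl23a and Rpl36al, where 30.7% of all genes were. The other 35 did not pass the test, and their log2 fold changes had a median of -0.06 and SE between 0.073 and 0.223. The median log2 fold change of the tested members was -0.17 (quartiles -0.26 and 0.00), and that of all genes 0.02 (quartiles -0.57 and 0.55). A difference of more than 0.5 on the log2 scale was seen in 4 members (7.27%), Rps6, Rps18, Rpl7 and Rpl23, and in 54.3% of all genes. A difference of more than 1 was seen in 1 member (1.82%), Rps6, and in 28.8% of all genes.

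**Figure D1:**
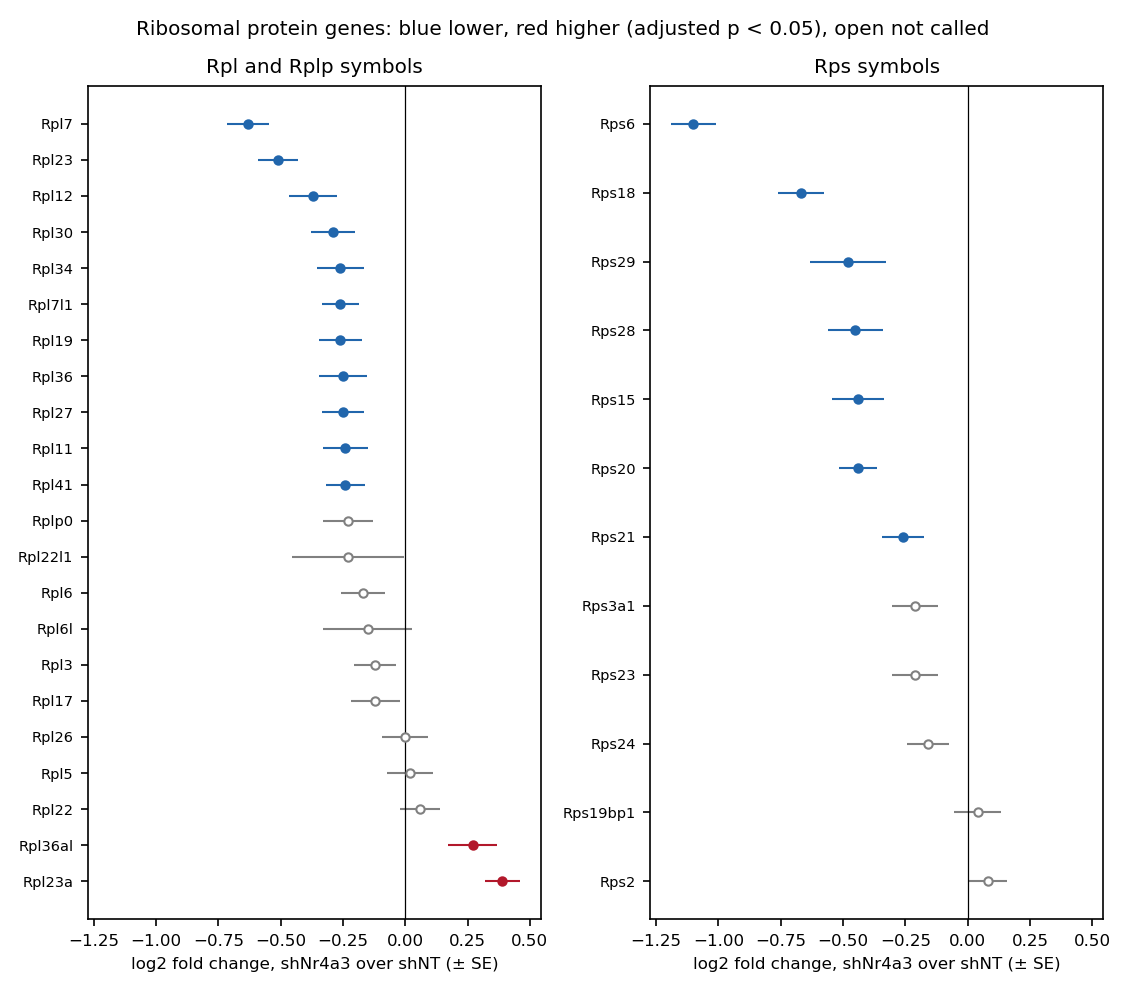
Log2 fold change, shNr4a3 over shNT, of 34 tested ribosomal protein genes, the 20 called and 14 others described in the text, with its standard error (bars), for large subunit symbols (left) and small subunit symbols (right). Filled points passed an adjusted p of 0.05, blue for 18 lower and red for 2 higher members, and Rps6 stands apart at -1.10.

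**Figure D2:**
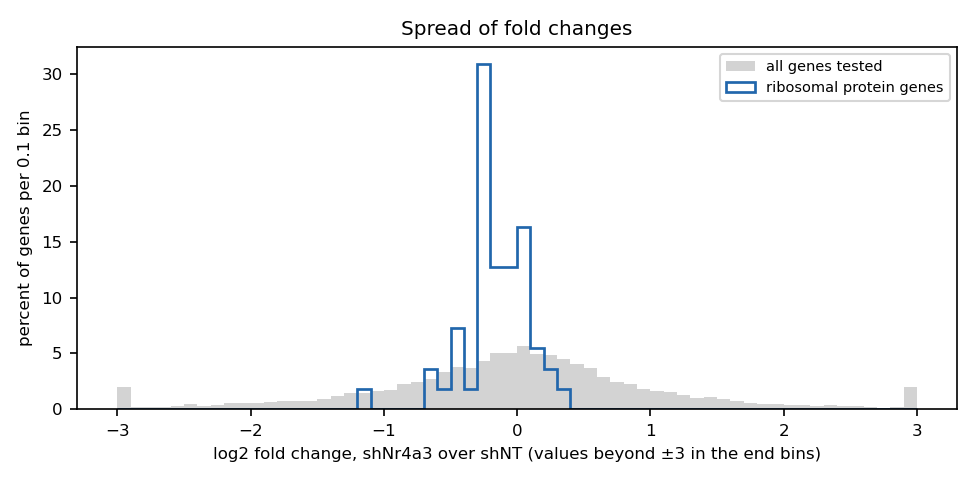
Percent of genes per bin of log2 fold change for all 10736 genes tested (grey) and for the 55 members (blue line). The members lie between -1.10 and 0.39, while the grey distribution reaches past -3 and 3, with the values beyond these limits gathered in its end bins.

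Both subunits contributed falls. Among the 31 ordinary large subunit genes 10 were called lower and 1 higher, with a median log2 fold change of -0.12. Among the 19 ordinary small subunit genes 7 were called lower and 0 higher, with a median of -0.21. The difference between the subunits was not tested. Both shNr4a3 libraries lay below both shNT libraries in 34 members (61.8%), against 39.9% of all genes. The groups did not overlap in 40 members (72.7%), against 81.0% of all genes. In the 6 that were apart and higher (Rpl23a, Rpl24, Rpl36al, Rpl7a, Rps2 and Rps26, of which Rpl24, Rpl7a and Rps26 are named after their values were seen), only Rpl23a and Rpl36al passed the test.

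Rps6, the small subunit protein that the S6 kinases phosphorylate downstream of mTORC1, had the largest difference of the family. Its level was 597.8 and 575.7 CPM in the shNT libraries and 294.7 and 252.5 CPM in the shNr4a3 libraries. Both knockdown libraries were thus well below both controls. Rps6 lies on chromosome 4 at 86854660 to 86857412 (minus strand, mm10) in 5 exons. Its mean fell from 587 ± 15.6 to 274 ± 29.8 CPM (SD, n = 2), a log2 fold change of -1.10 ± 0.0906 (adjusted p = 7.73e-06). It was called in each of 13 alternative fits, with log2 fold changes from -1.21 to -0.95 and adjusted p from 5.67e-28 to 2.94e-05.

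Rps18, a protein of the head of the small subunit, read 134.3 and 138.6 CPM in shNT and 92.57 and 79.43 CPM in shNr4a3. Its log2 fold change was -0.67 ± 0.0928 (adjusted p = 0.000229), and it was called in all 12 alternatives, with adjusted p of at most 0.00299. Its exons overlap those of Vps52 on the opposite strand, which also fell, with a log2 fold change of -0.28, and no source used here says whether counting used strand. Rps15, also in the head, read 363.4 and 357.6 CPM in shNT and 295.4 and 237.3 CPM in shNr4a3. It was called lower in all 13 alternatives (log2 fold change -0.44 ± 0.104, adjusted p = 0.00531, up to 0.0421 among them). Rps20, another head protein whose gene holds a snoRNA gene, read 150.2 and 148.2 CPM against 112.9 and 107.1 CPM. Its libraries were tight within each group, and the log2 fold change was -0.44 ± 0.0771 (adjusted p = 0.000958).

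Rps28 and Rps29 are short small subunit proteins whose mRNAs were counted at low levels here. Rps28 read 29.80 and 33.24 CPM in shNT and 24.08 and 22.15 CPM in shNr4a3 (log2 fold change -0.45 ± 0.110, adjusted p = 0.0065). Rps29 read 15.37 and 16.95 CPM in shNT and 12.92 and 10.23 CPM in shNr4a3 (log2 fold change -0.48 ± 0.152, adjusted p = 0.0212). The groups do not overlap for either gene, but the calls rest on single libraries. Without shNT replicate 2 the adjusted p was 0.0693 for Rps28 and 0.105 for Rps29, and without shNr4a3 replicate 2 it was 0.0929 for Rps29. Over all alternatives the adjusted p ran from 0.00282 to 0.109 for Rps28 and from 0.00379 to 0.108 for Rps29. The exons of Rps28 overlap those of Kank3 on the opposite strand, which rose (log2 fold change 1.01).

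Rpl7 had the largest fall among the large subunit genes. It read 781.0 and 786.8 CPM in shNT and 541.2 and 472.3 CPM in shNr4a3. The control libraries differed by less than the distance to either knockdown library, and the log2 fold change was -0.63 ± 0.0853 (adjusted p = 0.000193). Rpl23, which lies at the face of the large subunit and can bind Mdm2 when free, read 529.7 and 530.1 CPM in shNT and 393.0 and 351.0 CPM in shNr4a3. Its log2 fold change was -0.51 ± 0.0813 (adjusted p = 0.000527). Rpl7 and Rpl23 were called in each of 13 alternatives, with adjusted p of at most 0.00237 and 0.012.

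The 8 other members called lower that the naming rule does not pick had log2 fold changes from -0.37 (Rpl12) to -0.24 (Rpl11). Among them Rpl12, a protein at the base of the stalk on which elongation factors act, is named after its values were seen, because its call did not depend on any single library. It read 516.5 and 506.9 CPM in shNT and 431.9 and 358.2 CPM in shNr4a3 (log2 fold change -0.37 ± 0.0959, adjusted p = 0.00803). When each library was scaled to its own total of member counts, Rpl12 missed the threshold (-0.22, adjusted p = 0.0909). The exons of Rpl12 overlap those of Lrsam1 on the opposite strand (log2 fold change -0.23, not called). With each library left out in turn, 8 of the 20 calls were kept every time: Rpl7, Rpl12, Rpl23, Rpl23a, Rps6, Rps15, Rps18 and Rps20. In each such fit the scatter comes from the complete group alone, so calls gained or lost can reflect which group that was. Whether they do was not tested.

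Rpl23a, which sits at the exit of the nascent chain tunnel and contacts the signal recognition particle, went the other way. It read 615.5 and 628.1 CPM in shNT and 820.9 and 807.6 CPM in shNr4a3, and the libraries within each group lay close together. Its mean rose from 622 ± 8.89 to 814 ± 9.39 CPM (SD, n = 2; log2 fold change 0.39 ± 0.0719, adjusted p = 0.0013), and it was called in all 12 alternatives, with adjusted p from 1.68e-05 to 0.045. Its exons overlap those of Tlcd1 on the opposite strand, which read 203.4 and 191.6 CPM in shNT and 295.5 and 253.8 CPM in shNr4a3 (log2 fold change 0.48 ± 0.0915). The part of Tlcd1 reads in the Rpl23a counts was not tested. Rpl36al, a copy of the X-linked Rpl36a, read 97.91 and 86.80 CPM in shNT and 118.6 and 103.8 CPM in shNr4a3. Its log2 fold change of 0.27 ± 0.0981 (adjusted p = 0.0396) lost the call in 6 of 13 alternatives, with adjusted p up to 0.315 (without shNT replicate 2); it was also lost without shNT replicate 1 (0.0685), without shNr4a3 replicate 1 (0.118) and in DESeq2 (0.0542).

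**Figure D3:**
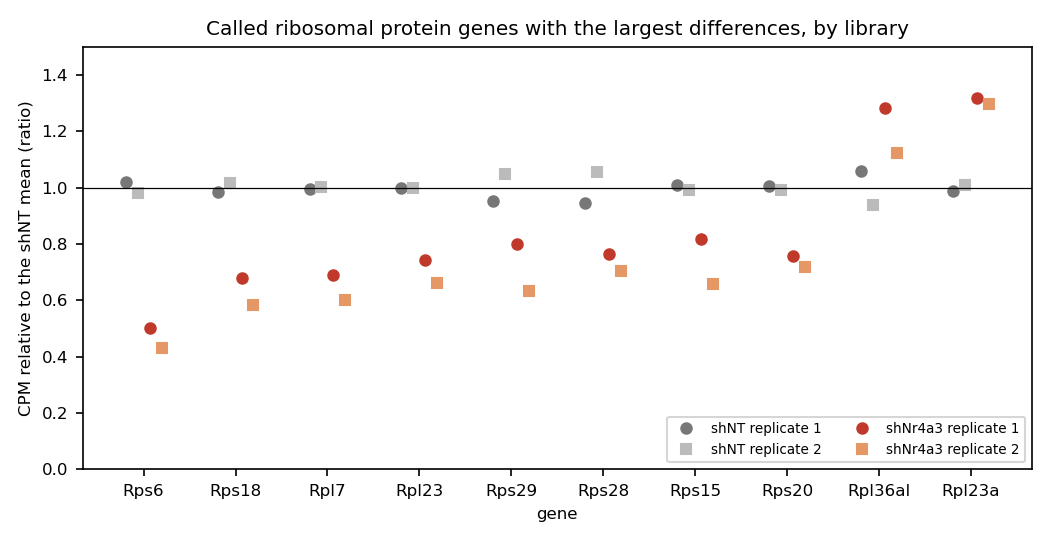
CPM in each of the 4 libraries divided by the shNT mean (ratio), for the 8 called members with the largest falls and the 2 that rose. Every shNr4a3 point of the first 8 lies below both shNT points, Rps6 is lowest, and the orange squares (shNr4a3 replicate 2) lie below the red circles (shNr4a3 replicate 1) in all 10 genes.

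The most abundant members, ranked by CPM per kilobase of the deposited exon length, were mostly not called, as were 35 of the 55 tested members. The order depends on this length, which for Rpl17 is 775 bases against 1326 in its main mRNA model. Among the large subunit genes Rpl19 led with 1270 CPM per kilobase over all libraries, followed by Rpl23a with 848, Rpl17 with 571, Rpl26 with 521 and Rpl5 with 506. Rpl19 read 1409 and 1425 CPM in shNT and 1264 and 1096 CPM in shNr4a3 (log2 fold change -0.26 ± 0.0862, adjusted p = 0.0251), and it lost the call without shNT replicate 1 (adjusted p = 0.109) and without shNT replicate 2 (0.147), with a range of 0.000252 to 0.341 over all alternatives. Rpl5, which binds Mdm2 together with Rpl11, read 2007 and 1927 CPM in shNT and 2169 and 1827 CPM in shNr4a3. The knockdown libraries lay on either side of the controls. Rpl26, at the rim of the exit tunnel, read 765.8 and 738.5 CPM in shNT and 816.3 and 691.4 CPM in shNr4a3, with the same overlap. Rpl17 read 477.3 and 442.9 CPM in shNT and 462.3 and 386.3 CPM in shNr4a3, and did not pass the test.

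Among the small subunit genes Rps24 had the highest level per length, 880 CPM per kilobase, followed by Rps3a1 with 550, Rps23 with 542, Rps15 with 497 and Rps2 with 304. Rps24 read 794.4 and 763.3 CPM in shNT and 742.5 and 655.7 CPM in shNr4a3 (log2 fold change -0.16 ± 0.0840, adjusted p = 0.138). Rps3a1 read 578.3 and 572.6 CPM in shNT and 540.7 and 456.4 CPM in shNr4a3 (log2 fold change -0.21 ± 0.0917, adjusted p = 0.0784). Rps23, a protein of the decoding centre, had the same log2 fold change of -0.21 ± 0.0927 (adjusted p = 0.0737). For these 3 genes both knockdown libraries were below both controls, yet the distance did not pass the test. Without shNr4a3 replicate 1 the log2 fold changes were -0.34 for Rps23, -0.33 for Rps3a1 and -0.24 for Rps24. That fit holds no scatter of the knockdown group, so it is no test of these genes. Rps2 read 546.8 and 535.6 CPM in shNT and 597.2 and 548.3 CPM in shNr4a3, a log2 fold change of 0.08 ± 0.0773.

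The knockdown libraries differed from each other across nearly the whole family. shNr4a3 replicate 1 was above shNr4a3 replicate 2 in 52 of 55 members (94.5%), where 50.4% of all genes were, and the median log2 ratio of replicate 1 over replicate 2 was 0.19. The 3 exceptions were Rpl22l1, Rpl37 and Rpl7l1 (Rpl37 is named after its values were seen). In shNT, replicate 1 was above replicate 2 in 30 of 55 members, with a median log2 ratio of 0.01. Against the shNT mean, the median member stood at 0.01 and -0.01 on the log2 scale in shNT replicates 1 and 2, at -0.07 in shNr4a3 replicate 1 and at -0.25 in shNr4a3 replicate 2. The median log2 fold change over members was accordingly -0.25 without shNr4a3 replicate 1 and -0.08 without shNr4a3 replicate 2.

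The family as a whole took 1.96% of the listed counts in shNT replicate 1 (Wilson 95% interval 1.956 to 1.966%), 1.92% in shNT replicate 2 (1.917 to 1.926%), 1.84% in shNr4a3 replicate 1 (1.837 to 1.847%) and 1.60% in shNr4a3 replicate 2 (1.599 to 1.608%). The intervals treat each count as independent, which the excess of even counts in these libraries goes against, so they are too narrow for the counting error and leave out other spread. Both knockdown libraries were below both controls, at 1.72 ± 0.169% against 1.94 ± 0.0277% (SD, n = 2), a difference of -0.219 percentage points. That difference was -0.338 points without shNr4a3 replicate 1 and -0.0993 points without shNr4a3 replicate 2. With 2 libraries against 2 an exact two-sided permutation test cannot go below p = 0.333, so no test is given.

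The ratio between the subunits was alike within each group. Summed large subunit counts were 2.74 times the small subunit counts in both shNT libraries, and 2.97 and 2.98 times in the shNr4a3 libraries. The difference of 0.238 was larger than the spread within either group (SD 0.000566 and 0.00562, n = 2). It was smaller when Rps6 was left out, a choice made after seeing the data: without Rps6 the ratios were 3.09 and 3.08 in shNT and 3.17 and 3.18 in shNr4a3, a difference of 0.0856. The ratio compares sums of counts over the members in the table and is no count of subunits.

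**Figure D4:**
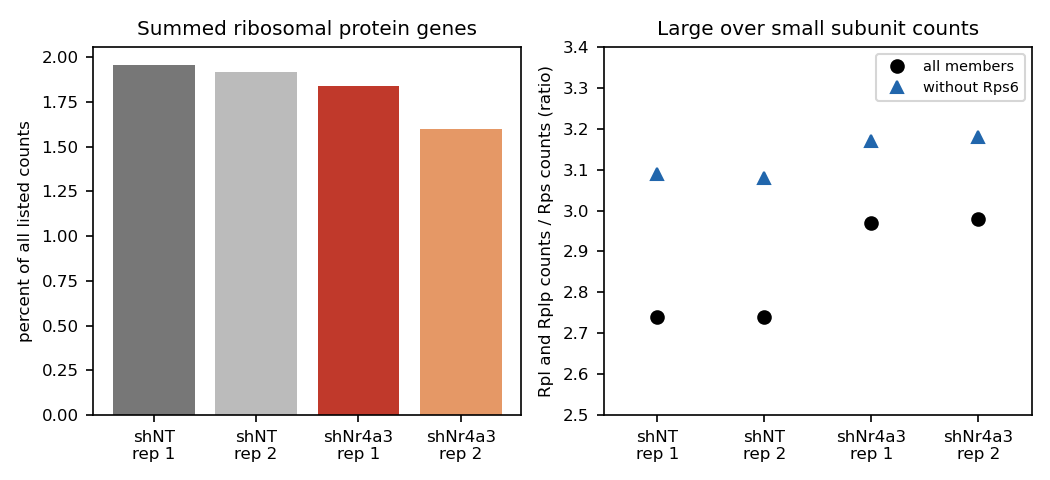
Left, percent of all listed counts taken by the 58 members in each library (bars from 0). Right, ratio of summed large to summed small subunit counts in each library, for all members (circles) and without Rps6 (triangles), on an axis that does not begin at 0. The share is 1.96 and 1.92% in shNT and 1.84 and 1.60% in shNr4a3, while the ratio is at 2.74 in both shNT libraries and at 2.97 and 2.98 in the shNr4a3 libraries.

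With each library scaled to its own total of member counts, a setting that removes any shift shared by the family, the median of all genes moved from 0.02 to 0.17 and that of the members from -0.17 to -0.02. On this scale 4 members (7.27%) were called higher and 5 (9.09%) lower, against 34.1% and 21.1% of all genes. Of the 20 members called by the first scaling 7 were also called here, in the same direction: Rps6 (-0.95), Rps18 (-0.52), Rpl7 (-0.48), Rpl23 (-0.36) and Rps15 (-0.29) lower, and Rpl23a (0.55) and Rpl36al (0.42) higher. The 2 added calls were Rpl7a (0.35) and Rps26 (0.33), named after their values were seen. Rps20 missed the threshold on this scale (-0.28, adjusted p = 0.0603). The number called changed with the library left out, in fits whose scatter comes from the complete group alone.

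Of the acidic stalk proteins, which recruit elongation factors, Rplp0 was analysed here. It read 313.3 and 319.4 CPM in shNT and 298.0 and 242.0 CPM in shNr4a3, a log2 fold change of -0.23 ± 0.101 that did not pass the test (adjusted p = 0.0777). Both knockdown libraries were below both controls, shNr4a3 replicate 1 by little. Its log2 fold change was -0.38 without shNr4a3 replicate 1, a fit that holds no scatter of the knockdown group. Over all alternatives the log2 fold change of Rplp0 ran from -0.38 to -0.08.

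Several copies were scarce. Rpl3l, the copy of Rpl3 used in heart and skeletal muscle, had 4 and 14 counts in shNT and 0 and 0 in shNr4a3. With a floor of 3 counts set for the shNr4a3 group, Rpl3l was 6.27-fold lower there. That figure leaves out the scatter of the few shNT counts and is no lower bound. Rpl3l was below the filter and was not tested. Its parent Rpl3 read 670.3 and 653.1 CPM in shNT and 645.7 and 568.6 CPM in shNr4a3 and did not pass the test. Rpl10l, a copy active in testis, had 0 counts in all 4 libraries. Rpl39l, another copy known from testis, had 0 and 8 counts in shNT and 12 and 4 in shNr4a3, and was not tested either.

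Rpl7l1, a relative of Rpl7, read 215.9 and 210.2 CPM in shNT and 177.3 and 178.5 CPM in shNr4a3 (log2 fold change -0.26 ± 0.0736, adjusted p = 0.0131). The libraries of each group were close together. The call was lost without shNT replicate 1 (adjusted p = 0.123) and without shNT replicate 2 (0.0917), and the adjusted p ran from 0.0062 to 0.494 over all alternatives. Rpl7 had the larger fitted fall, and Rpl7l1 stood at 28.5 and 27.5% of Rpl7 per kilobase in shNT and at 33.8 and 39.0% in shNr4a3. Shares per kilobase rest on the deposited exon length, which can differ from that of the main mRNA model. It was 2687 against 1163 bases for Rpl7 and 1989 against 552 bases for Rpl22l1, so the size of these shares depends on the length used. Rpl22l1, the copy that Rpl22 is known to hold down, stood at 2.48 and 2.88% of Rpl22 per kilobase in shNT and at 2.08 and 2.32% in shNr4a3. Neither passed the test, with log2 fold changes of -0.23 ± 0.223 for Rpl22l1 and 0.06 ± 0.0813 for Rpl22. Rpl6l, which GENCODE lists as a processed pseudogene, was at 2.39 to 3.16% of Rpl6 per kilobase, and neither Rpl6l (-0.15 ± 0.179) nor Rpl6 (-0.17 ± 0.0875) passed the test. Rps19bp1, the namesake that also regulates the deacetylase Sirt1, read 95.95 and 83.60 CPM in shNT and 96.05 and 88.19 CPM in shNr4a3, with overlapping groups. Reads of near-identical copies can be exchanged in counting, and the 13 pseudogene symbols together took 0.000917 to 0.00119% of counts.

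The fold changes of the members followed none of the gene features closely. Across the 55 tested members Spearman's rho with the log2 fold change was -0.17 for the deposited exon length, 0.14 for the level per kilobase and, across the 54 with a coding model, 0.05 for the coding length. These are correlations across genes that share the same libraries and are no test. Deposited exon lengths ran from 404 to 4080 bases (median 1499) and coding lengths from 75 to 1221 bases (median 453). The 16 members with a snoRNA gene inside had a median log2 fold change of -0.13, with 4 lower and 1 higher (31.2% called). The other 39 tested members had -0.20, with 14 lower and 1 higher (38.5% called), where 60.2% of all genes were called. Exons of 9 members overlap another gene on the opposite strand, of which 3 were called lower and 1 higher (44.4% called).

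Other genes of the translation machinery were read from lists chosen with results of these data known, in the same fit. Of the further ribosome genes Rack1, the scaffold on the small subunit, read 178.8 and 184.8 CPM in shNT and 156.7 and 136.8 CPM in shNr4a3 (log2 fold change -0.31 ± 0.0877, adjusted p = 0.0131), a call lost without shNT replicate 1 (0.0517) and without shNT replicate 2 (0.107), with a range of 0.000387 to 0.107. Fau, which encodes the small subunit protein eS30 as a fusion, did not pass the test (0.02 ± 0.0898). Of 11 elongation and termination genes 5 were lower and 1 higher (54.5% called, near the 60.2% of all genes), with a median log2 fold change of -0.23. Etf1, the release factor, fell from 578.8 and 588.9 CPM to 255.6 and 251.2 CPM, a log2 fold change of -1.20 ± 0.0730. Eef2, the translocase, fell from 1045 and 1039 CPM to 758.1 and 709.1 CPM (-0.51 ± 0.0750). Eef1a2, the muscle and neuron form of the factor that delivers aminoacyl-tRNA, fell from 7.144 and 4.450 CPM to 1.391 and 0.456 CPM (-2.65 ± 0.459).

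Of 12 other TOP mRNAs and snoRNA host genes 6 were lower and 2 higher (66.7% called, near the 60.2% of all genes), with a median log2 fold change of -0.21 beside the -0.17 of the ribosomal protein genes. Pabpc1, the poly(A) binding protein, fell from 2023 and 2025 CPM to 1021 and 1006 CPM (log2 fold change -1.0 ± 0.0721). Tpt1 fell from 1486 and 1403 CPM to 789.9 and 672.4 CPM (-0.98 ± 0.0928). Npm1, a nucleolar chaperone of ribosome assembly, fell from 1749 and 1671 CPM to 1184 and 1008 CPM (-0.64 ± 0.0914). The 2 called higher were Eif3h (0.54 ± 0.0806) and Hnrnpa1 (0.30 ± 0.0827), named after their values were seen, and 4 of the 12 did not pass the test.

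Of 28 genes of mTORC1 and its regulators 8 were higher and 3 lower (39.3% called, against 60.2% of all genes), with a median log2 fold change of 0.14. Tbc1d7, a subunit of the TSC complex that restrains mTORC1, rose from 3.012 and 2.094 CPM to 8.678 and 9.445 CPM (1.83 ± 0.231). Rragc, a GTPase that brings mTORC1 to the lysosome, fell from 173.6 and 178.4 CPM to 52.99 and 54.78 CPM (-1.71 ± 0.0793), and Rheb, its activating GTPase, fell from 136.1 and 146.7 CPM to 72.57 and 66.83 CPM (-1.02 ± 0.0861). Tsc2, of the same TSC complex as Tbc1d7, was also called lower and is named after its values were seen. It fell from 67.20 and 71.75 CPM to 38.69 and 42.31 CPM (-0.78 ± 0.0944). Mtor differed by 0.32 ± 0.106 on the log2 scale (adjusted p = 0.0271), a call lost without shNT replicate 1 (0.168), shNT replicate 2 (0.0906) or shNr4a3 replicate 2 (0.145), with a range of 0.000723 to 0.168. Larp1, which binds TOP mRNAs, did not pass the test (0.23 ± 0.0967, adjusted p = 0.0689).

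Of 13 genes of the Myc and p53 axis 8 were called higher and 5 lower, which is all of them against 60.2% of all genes, with a median log2 fold change of 0.29. The list pools genes of opposite action, such as Trp53 and its negative regulator Mdm2, so this median gives no direction of the axis. Max (0.61), Mxd3 (0.52), Mxd4 (0.69), Mxi1 (0.85) and Cdkn1a (0.29) were higher, and Mycn (-0.83) and Bop1 (-1.05) lower. These are named after their values were seen. Pim1, a kinase that acts with Myc, fell from 42.16 and 44.43 CPM to 15.93 and 13.19 CPM (-1.57 ± 0.121). Mdm4, a partner of Mdm2 in holding down p53, fell from 108.5 and 109.0 CPM to 35.90 and 41.39 CPM (-1.49 ± 0.0960). Mdm2 itself rose (0.35 ± 0.0748) and Trp53, the p53 gene, fell (-0.56 ± 0.128), both named after their values were seen. Myc read 29.35 and 31.97 CPM in shNT and 38.06 and 37.00 CPM in shNr4a3 (0.29 ± 0.0997, adjusted p = 0.0304), a call lost without shNT replicate 1 (0.268), shNT replicate 2 (0.0725) or shNr4a3 replicate 1 (0.0531) and in DESeq2 (0.092), with a range of 0.0253 to 0.268. Mycl had 2 and 2 counts in shNT and 12 and 14 in shNr4a3 (adjusted p = 0.0234), and its call was lost in each of 4 fits that left out a library, with adjusted p between 0.0941 and 0.169, and in DESeq2 (0.124).

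Of 10 transcription factors reported at ribosomal protein promoters 3 were lower and 1 higher (40% called, against 60.2% of all genes), with a median log2 fold change of -0.12. Sp1, a factor of GC-rich sites, fell from 59.46 and 60.89 CPM to 15.04 and 15.05 CPM (-2.0 ± 0.0982), and its relative Sp3 from 122.8 and 112.7 CPM to 63.79 and 67.77 CPM (-0.84 ± 0.0865). Gabpa, the other factor called lower, fell from 140.2 and 148.9 CPM to 115.8 and 117.9 CPM (-0.31 ± 0.0777) and is named after its values were seen. Tbpl1, the paralogue of the TATA-binding protein, rose from 15.69 and 14.56 CPM to 22.42 and 21.66 CPM (0.54 ± 0.116). No binding was measured in these libraries.

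Markers of other cell types moved between the groups as well. The test called 60.2% of all genes, beside 54.5% of macrophage, 100% of mural, 70% of cardiomyocyte, 66.7% of endothelial and 80% of fibroblast markers. Summed over the list, 11 macrophage markers were at 232.1 and 181.3 CPM in shNT and at 162.8 and 158.4 CPM in shNr4a3, with 6 lower and 0 higher. Most of this sum was Lyz2 (169.4 and 133.8 CPM in shNT, 137.0 and 132.3 CPM in shNr4a3), which did not pass the test. The median log2 fold change of the macrophage list was -1.07. Summed mural cell markers (5 genes) were at 626.7 and 650.2 CPM in shNT and at 1484 and 1395 CPM in shNr4a3, with 4 higher and 1 lower. The marker that fell was Pdgfrb (147.8 and 156.4 CPM in shNT, 92.74 and 98.52 CPM in shNr4a3, log2 fold change -0.67). Most of the mural sum was Acta2 (418.6 and 437.5 CPM in shNT, 1250 and 1138 CPM in shNr4a3). Summed cardiomyocyte markers (10 genes) were at 15600 and 13380 CPM in shNT and at 8648 and 7674 CPM in shNr4a3, with 5 higher and 2 lower. Most of the sum was Tnnt2 (15310 and 13110 CPM in shNT, 8238 and 7121 CPM in shNr4a3), which fell, as did Myl7 (-0.37). The 5 called higher on the log2 scale were Actc1 (3.71), Myh6 (1.14), Ttn (0.87), Actn2 (0.74) and Ryr2 (0.35). The median log2 fold change of the cardiomyocyte list was 0.18. Summed endothelial markers (6 genes) were at 97.46 and 112.5 CPM in shNT and at 89.06 and 100.2 CPM in shNr4a3, with 2 higher and 2 lower. The largest part of the endothelial sum was Tek, which fell (60.41 and 69.20 CPM in shNT, 38.49 and 35.43 CPM in shNr4a3). Emcn (1.82) and Kdr (0.98) rose on the log2 scale, and Egfl7 (-0.48) fell. The median log2 fold change of this list was 0.59. The 10 fibroblast markers were at 16000 and 17510 CPM in shNT and at 20120 and 21930 CPM in shNr4a3, with 2 higher and 6 lower and a median log2 fold change of -0.46. The rise of the sum was that of Fn1, from 4783 and 6350 CPM to 12130 and 14590 CPM, while Tcf21 (-3.35), Pdgfra (-2.26), Col1a1 (-0.89) and Vim (-0.75) fell on the log2 scale. No marker in these 5 lists had 0 counts in all libraries, and Cd79b, the lymphocyte marker analysed here, had 0 to 0.0331 CPM. Their part in the values of the ribosomal protein genes was not tested.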

How the data were processed

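Raw read counts per gene, with no normalization, were deposited by the authors in 1 table of 16383 genes and 4 libraries. The deposited table also gives each gene's exon positions and exon length in bases, another kind of value. Per the labels' protocols, ribosomal RNA was removed before stranded library preparation and paired-end sequencing, while the molecule label reads polyA RNA. Per the submitters' processing notes, Trimmomatic 0.36, featureCounts (Subread 1.5.1) and SAMtools were used, and the genome build was mm10. An aligner, a strand option and an annotation version were not given in the sources used here. Genes listed cover chromosomes 10 to 19, 1 to 5 and part of 6. Totals were 28220440 and 30479301 counts in shNT and 30395159 and 30976450 in shNr4a3. Counts of 1 to 20 were even in 78.4 to 79.8% of cases, so counts are not independent fragments.

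Differences were tested with edgeR 4.0.16 (quasi-likelihood F test, TMM, filterByExpr, Benjamini-Hochberg over 10736 genes, threshold 0.05), checked on simulated data of the same size (2-fold changes in 200 genes, of which 184 of 199 tested were recovered and 8 of the other genes were called, over 10678 genes tested). The simulated counts were independent, had a fixed dispersion and held far fewer changed genes than were called in the data. The check does not cover differences smaller than 2-fold. CPM are TMM-scaled. DESeq2 1.42.0 and limma-voom (limma 3.58.1) were alternatives. Further fits left out each library in turn, and their scatter comes from the complete group alone. Their adjusted p and calls describe sensitivity and are no tests of the contrast. Gene models and overlaps came from GENCODE M21 (GRCm38), in which 16076 symbols (98.1%) matched by chromosome, because exon lists are cut at 255 characters in 5390 rows. Promoters came from RefSeq (GRCm38.p6). The libraries of each group differed by more than counting noise (chi-square per degree of freedom 10.63 and 22.14).

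Members named with values were up to 8 called with the largest rise (2 were called) and the 8 called with the largest fall, the 5 most abundant per kilobase of each subunit, the copies with their parents, the stalk member and those below the filter, and of each list the 3 called genes of largest change plus a few fixed regulators. The members and lists were chosen with earlier results of these data known. Rpl6l was added to the copies after the data were seen. Single values of 1 tested member are not reported here.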

Additional observations from a re-analysis of the deposited data

How the results depend on the processing

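The negative median of the members kept its sign under every alternative run and lay between -0.25 and -0.08 with 1 library left out, moving most when each library was scaled to the member total (-0.02). No called member changed sign. Of the named genes that missed the test, some did: on the log2 scale Rpl17 and Rpl3 (both -0.12) went to 0.03 and Rpl6l (-0.15) to 0.01 with the member total scaling, Fau and Rpl5 (both 0.02) to -0.01 with upper-quartile factors, and with 1 library left out Fau ran from -0.09 to 0.12, Rpl5 from -0.10 to 0.13, Rpl6l from -0.36 to 0.08 and Rps19bp1 (0.04) from -0.06 to 0.12. The number of members called lower, 18, was 7 to 32 with 1 library left out and 5 with the member total scaling. It was 16 to 21 under DESeq2, limma-voom, RLE, upper-quartile and no factors, no filter, and without genes that overlap another. The number called higher, 2, was 1 under DESeq2, upper-quartile factors, library totals without factors, without overlapping genes and without the copies, 1 to 5 with a library left out, and 4 with the member total scaling. The number called against the member total, 9, was 1 to 21 with a library left out. The ratio difference of 0.238 was 0.246 without the copies, 0.224 without the most abundant member of each subunit and 0.0856 without Rps6, the last chosen after seeing the data. The share difference ran from -0.338 to -0.0993 with a library left out. Across genes, the deviations of libraries that share a replicate number had a correlation of 0.0229. This value cannot show whether such libraries were grown together, and the labels do not say. With the replicate block 23 members were lower, 3 higher and 8 were called against the member total. The cause of these differences was not tested. Rpl3l, Rpl10l and Rpl39l had too few counts for a test, and among the tested members the SE was largest for Rpl22l1 (0.223).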
